A study of Bos taurus with 12 samples.

Results

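STK38 and SGK1 are 2 protein kinases, of the 9155 genes that a probe set of the bovine genome array names alone. Their transcripts were read by 4 of the 24016 non-control probe sets, 1 for STK38 and 3 for SGK1. A probe set is a group of short probes that reports a single signal for a stretch of transcript. The pair was selected on the measured signal itself: both genes had been listed for low signal in 8-16-cell embryos of prepubertal heifers. The values of that group are therefore given as a description, and tests of the 2 genes are kept to comparisons that do not contain it. Their error is still estimated from all 12 arrays, that group included. It rests mostly on a trend shared by all probe sets, so an SE is not the spread of the arrays compared. For other genes, adjusted p values are given in all 4 comparisons. The SGK1 probe sets are named here by the endings of their identifiers, S1_at, S1_a_at and A1_at. On this type of array the ending a_at marks a probe set shared by several transcripts of a gene. The label of low signal held for the STK38 probe set and for 1 of the 3 SGK1 probe sets, S1_a_at. The S1_at probe set was bright in the same embryos, and A1_at lay at background on 11 of the 12 arrays of the study.

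The embryos were Japanese Black cattle embryos produced in vitro. The oocytes came from adult cows or from prepubertal heifers aged 9 to 12 months and were fertilised with semen of a Japanese Black bull. Embryos were taken at the 8-16-cell stage on day 3 (70 to 72 h after insemination, 50 embryos pooled per sample) or as expanded blastocysts on day 7 before hatching (10 per sample). Each of the 4 combinations of donor and stage had 3 arrays, which the labels call biological replicates. All groups shared the maturation, fertilisation and culture media, with serum in the later culture. Cow ovaries came from an abattoir and heifer ovaries from surgery on farms, so donor age and way of collection cannot be told apart. Embryos of normal morphology were picked before pooling, and RNA was amplified before it was labelled.

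STK38, also called NDR1, belongs to the NDR family of the AGC kinases, a relative of the LATS kinases of the Hippo pathway. MOB1 proteins bind and activate it, and MST kinases phosphorylate it. It takes part in centrosome duplication, cell cycle progression, autophagy and the phosphorylation of YAP, the transcriptional co-activator that Hippo signalling restrains. SGK1, the serum- and glucocorticoid-regulated kinase, is an AGC kinase close to AKT. It is switched on by mTORC2 and PDK1 downstream of PI3-kinase, and its gene is known for fast induction by serum and corticosteroids. SGK1 acts on ion channels and transporters, partly through the ubiquitin ligase NEDD4L, and on FOXO transcription factors. In early cattle embryos the 8-16-cell stage is when major transcription from the embryonic genome begins and maternal transcripts decline, and the blastocyst is when trophectoderm and inner cell mass separate.

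Signals are MAS5 intensities, on a linear scale and adjusted within each array to a common mean. No detection call was used. Each array carries 27 probe sets for genes of Bacillus subtilis, and the brightest of these was taken as the background of that array. It would be too high if such RNA was added to the samples, which the labels do not say. It lay between 122 and 424 on 11 arrays. The third replicate of the prepubertal 8-16-cell group stood apart, with a background of 1664, 1255 probe sets above background (4297 to 8500 on the others) and 49.3% of all signal in its 100 brightest probe sets (23.3% to 32.7% on the others). Stage markers went with the labels. The summed signal of 7 trophectoderm markers was 800 to 6309 on the 8-16-cell arrays and 56141 to 102070 on the blastocyst arrays, and that of 8 oocyte markers was 33085 to 266300 and 243 to 1729. Of 10 cumulus and granulosa cell markers, 1 in each group was above background on all 3 arrays (STAR at the 8-16-cell stage, HAS2 in blastocysts), and the sum was 1341 to 4290, 1571 to 13925, 1856 to 3820 and 1511 to 1993 in the adult 8-16-cell, prepubertal 8-16-cell, adult blastocyst and prepubertal blastocyst groups. None (0) of the 6 blood and 6 sperm markers named on the array was above background on all 3 arrays of any group. The part of these markers in the values below was not tested.

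The STK38 probe set gave signals of 10177, 2675 and 14032 on the 3 adult 8-16-cell arrays. On the prepubertal 8-16-cell arrays it gave 183, 20.8 and 41.4, against array backgrounds of 356, 424 and 1664. All 3 adult arrays were well above background, all 3 prepubertal arrays were below it, and the groups did not overlap. On the scale of log2(signal + 16) the group levels were 12.83 ± 1.26 and 6.23 ± 1.26 (mean ± SD, n = 3 each), a difference of -6.60 (SE 1.45). Because the dimmer group has only a bound, the fold is given as at least 11.2-fold lower in prepubertal embryos. That bound sets the mean of the bright group against the dim group with each dim signal raised to its array's background. Without the array that stood apart the difference was -6.41, and with every signal raised to the highest background of any array it was -2.11. This contrast chose the gene, so no test is attached to it. In it 0.0208% of all probe sets passed an adjusted p of 0.05 by limma, the linear model fitted to all 12 arrays, and in 12.7% the groups did not overlap.

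In blastocysts STK38 was above background on all 3 prepubertal arrays and on 2 of 3 adult arrays. The adult signals were 204, 1962 and 248, and the prepubertal signals were 585, 2783 and 3630. One adult array lay inside the prepubertal range and the other two lay below it, close to their backgrounds of 187 and 282. The levels were 8.92 ± 1.76 and 10.84 ± 1.40 (SD, n = 3 each). Prepubertal minus adult was 1.91 (SE 1.45, 95% interval -0.94 to 4.77), which did not pass (limma, adjusted p = 0.9996). In the comparison of donors in blastocysts 0% of the probe sets passed limma's adjusted threshold (884 had an unadjusted p below 0.05), and in 9.82% the groups did not overlap.

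Across stages the STK38 differences had opposite signs in the 2 donor groups, and the contrast between them was not tested. In adult-derived embryos it was lower in blastocysts, with all 3 blastocyst signals (204 to 1962) under all 3 signals at the 8-16-cell stage (2675 to 14032). The difference was -3.90 (SE 1.45, 95% interval -6.76 to -1.05), with an adjusted p of 0.161 by limma, so it did not pass. With every signal raised to the highest background it was -2.04. The adult blastocyst signals of 204 and 248 lay close to their backgrounds of 187 and 282, so its size is not well measured. The comparison shares the adult 8-16-cell arrays with the contrast that chose the gene. The adjusted p ranged from 0.0475 to 0.471 over 23 alternative settings and fell below 0.05 in 2 of them, when only probe sets above background in a group were tested and when only the 6 arrays compared were fitted (0.0485). In prepubertal-derived embryos all 3 blastocyst signals (585 to 3630) lay above all 3 at the 8-16-cell stage (20.8 to 183), a difference of 4.61 (SE 1.45) or at least 2.82-fold, which became 0.62 with every signal raised to the highest background. That value is a description, since it uses the group the gene was chosen by. Over all probe sets, 2.13% passed the adjusted threshold between the stages in adult-derived embryos and 2.34% in prepubertal-derived embryos, and in 17.2% and 16.6% the groups did not overlap. Amounts in a pool of embryos do not tell apart fewer cells holding a transcript from less transcript per cell.

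**Figure D1:**
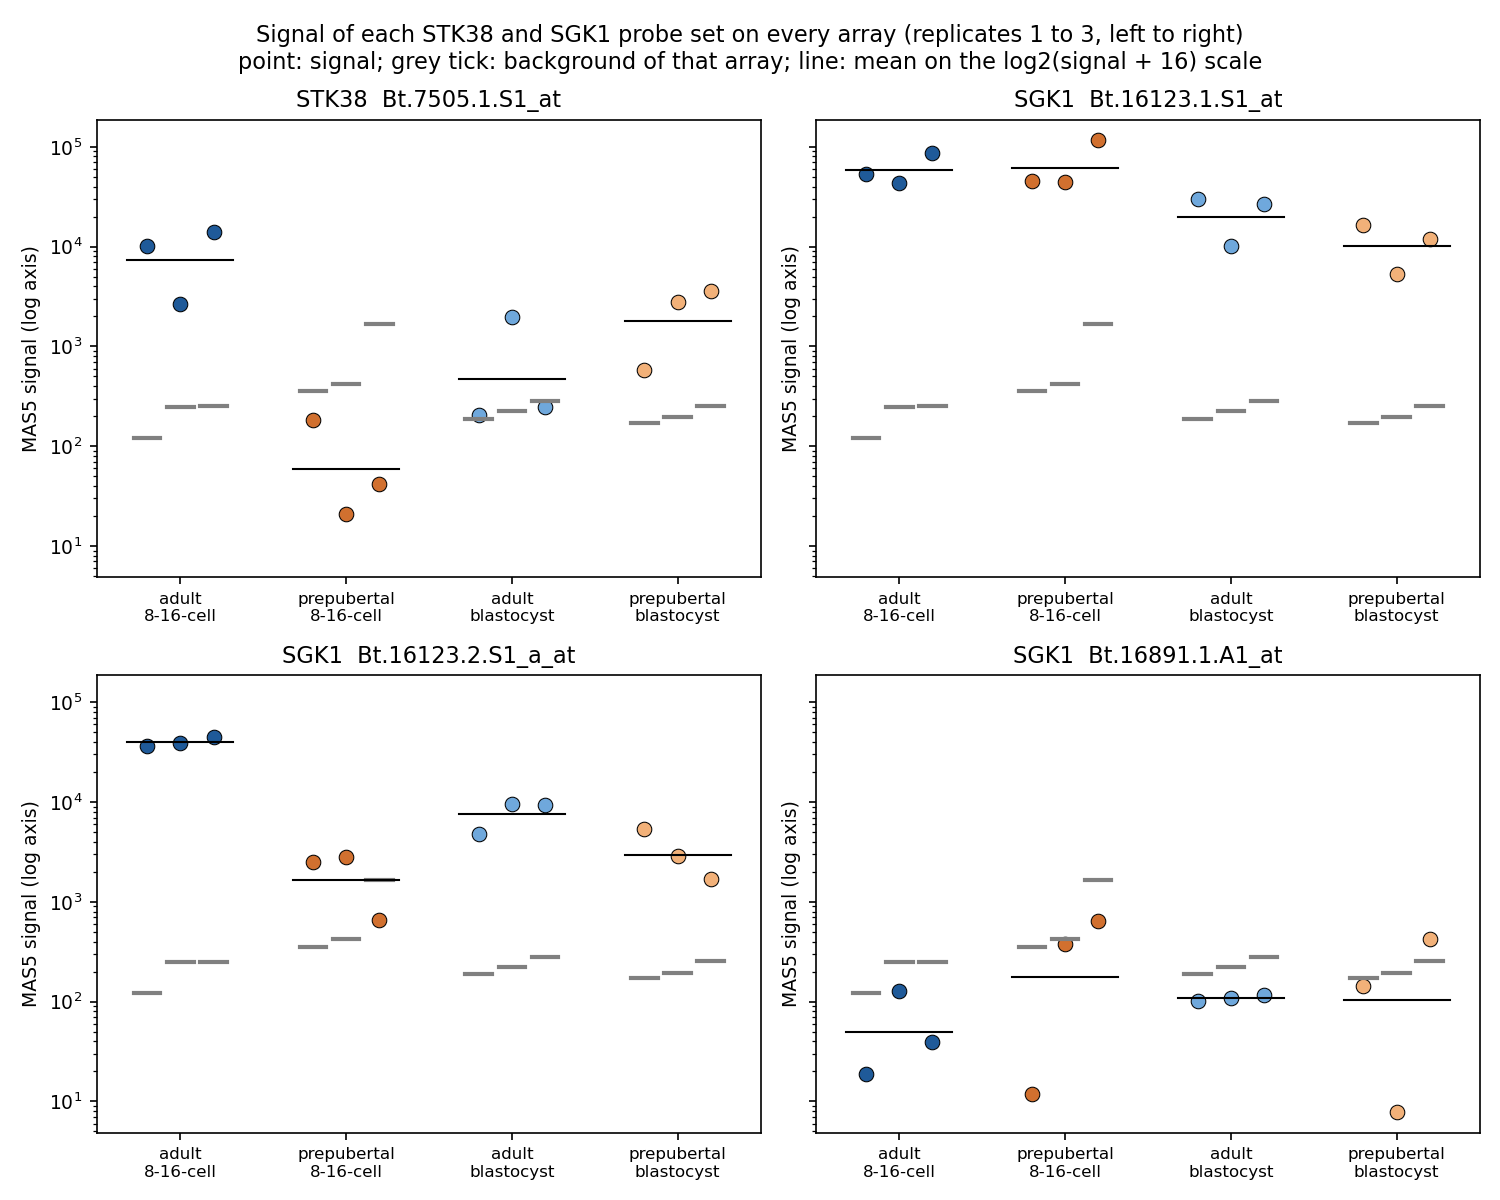
MAS5 signal (log axis) of the STK38 probe set and the 3 SGK1 probe sets on each of the 12 arrays; points are arrays, grey ticks the background of that array and black lines the group mean on the log2(signal + 16) scale. STK38 lies below background on the 3 prepubertal 8-16-cell arrays and at 2675 to 14032 on the adult ones; of the SGK1 probe sets, S1_a_at is low there and S1_at is not.

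SGK1 was read by 2 bright probe sets, and they differed in the group the genes were chosen by. S1_at gave 52824, 43197 and 86743 on the adult 8-16-cell arrays and 45382, 43886 and 115876 on the prepubertal ones. These groups overlapped throughout, with levels of 15.83 ± 0.52 and 15.90 ± 0.79 (SD, n = 3 each) and a difference of 0.07 (SE 0.72). Without the third prepubertal array the difference was -0.38.

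S1_a_at gave 36556, 38656 and 45270 on the adult 8-16-cell arrays and 2535, 2790 and 651 on the prepubertal ones. The first 2 prepubertal signals were above their backgrounds of 356 and 424, and the third was below its background of 1664. Every adult signal was more than 10 times the highest prepubertal one. The levels were 15.29 ± 0.16 and 10.72 ± 1.16 (SD, n = 3 each), a difference of -4.57 (SE 1.07). No fold is given, since S1_a_at was measured above background on 2 of the 3 prepubertal arrays. Leaving out the array that stood apart gave -3.90, and raising every signal to the highest background gave -4.13.

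The scaling of the arrays bears on these numbers. Bacterial hybridization controls were 3.05-fold brighter on the prepubertal than on the adult 8-16-cell arrays, and 1.05-fold in blastocysts, and the median prepubertal minus adult difference over all probe sets was 0.59 and 0.16 at these stages. Scaled to those controls, a setting chosen after seeing the data, the prepubertal minus adult difference at the 8-16-cell stage became -8.21 for STK38, -6.18 for S1_a_at and -1.54 for S1_at. STK38 and S1_a_at were thus lower under either scaling, and no direction is given for S1_at.

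In blastocysts both SGK1 probe sets were above background on all 6 arrays. S1_at gave 29703, 10100 and 26608 in adult-derived and 16306, 5373 and 12016 in prepubertal-derived blastocysts, and S1_a_at gave 4766, 9595 and 9424 and then 5398, 2856 and 1706. For each probe set the donor groups overlapped. The levels of S1_at were 14.29 ± 0.86 and 13.32 ± 0.83, and prepubertal minus adult was -0.97 (SE 0.72, 95% interval -2.40 to 0.45, n = 3 each), with an adjusted p of 0.9996 by limma. Those of S1_a_at were 12.89 ± 0.57 and 11.55 ± 0.83, a difference of -1.34 (SE 1.07, 95% interval -3.45 to 0.77), with the same adjusted p by limma. Neither passed, and both intervals reach from more than a 4-fold decrease to an increase.

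Between the stages in adult-derived embryos, both bright SGK1 probe sets had all 3 blastocyst signals under all 3 signals at the 8-16-cell stage. These groups did not overlap in 17.2% of all probe sets. The difference was -1.54 for S1_at (SE 0.72, 95% interval -2.97 to -0.12, adjusted p = 0.370 by limma). For S1_a_at it was -2.40 (SE 1.07, 95% interval -4.51 to -0.30, adjusted p = 0.323 by limma). Neither passed over the 24016 probe sets, and both share the adult 8-16-cell arrays with the contrast that chose the genes. The adjusted p of S1_a_at ranged from 0.0234 to 0.628 over 23 alternative settings, and it was below 0.05 with signals raised to the highest background (0.0234) and with only the 6 arrays compared (0.0322). Raising the signals also left out probe sets never above that background, so fewer were tested. The SE of S1_a_at was then 0.50, at the same -2.40. The adjusted p of S1_at ranged from 0.102 to 0.801.

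In prepubertal-derived embryos the stages gave a different picture for each probe set, again as a description. S1_at was lower in all 3 blastocyst arrays than in all 3 at the 8-16-cell stage, by -2.59 (SE 0.72). In 16.6% of all probe sets these groups did not overlap. S1_a_at overlapped between the stages, with a difference of 0.83 (SE 1.07) that became 0.16 without the array that stood apart. Scaled to the hybridization controls these differences were -1.32 and 2.10.

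**Figure D2:**
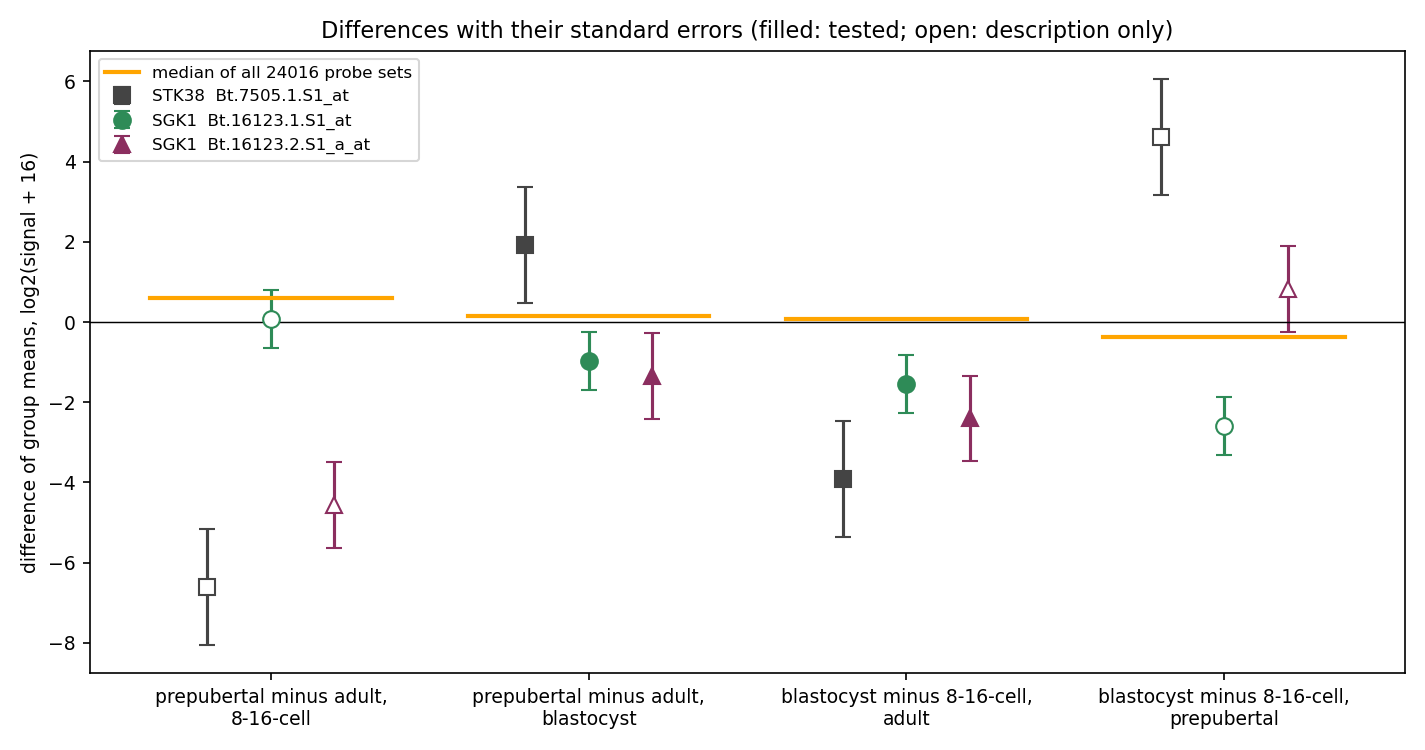
Difference of group means on the log2(signal + 16) scale, with its standard error, for the STK38 probe set and the 2 bright SGK1 probe sets in the 4 comparisons; filled symbols were tested, open ones use the group by which the genes were chosen, and orange lines mark the median of all 24016 probe sets. STK38 is at -6.60 between donors at the 8-16-cell stage and at 1.91 in blastocysts, and at the 8-16-cell stage the SGK1 probe sets are at 0.07 and -4.57.

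The split between the SGK1 probe sets was then taken array by array, as log2(signal + 16) of S1_a_at minus that of S1_at. Such a gap also carries how strongly each probe set responds, so only its change between groups is read. It was -0.53, -0.16 and -0.94 on the adult 8-16-cell arrays and -4.15, -3.97 and -7.44 on the prepubertal ones. The -7.44 comes from the array that stood apart, where S1_a_at was below background, so it is not a measured gap and enters the mean and SD of that group. In blastocysts it was -2.64, -0.07 and -1.50 for adults and -1.59, -0.91 and -2.80 for heifers. All 3 prepubertal 8-16-cell arrays lay below the other 9 arrays, whose gaps overlapped between donors in blastocysts and between stages in adult-derived embryos.

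The group means of the gap were -0.54 ± 0.39, -5.19 ± 1.95, -1.40 ± 1.28 and -1.77 ± 0.96 (SD, n = 3 each) in the adult 8-16-cell, prepubertal 8-16-cell, adult blastocyst and prepubertal blastocyst groups. Between donors at the 8-16-cell stage the gap changed by -4.64, or -3.52 without the array that stood apart. Between donors in blastocysts it changed by -0.37 (exact two-sided permutation test, p = 0.7), and between stages in adult-derived embryos by -0.86 (exact two-sided permutation test, p = 0.4). With 3 arrays against 3 this exact test cannot go below p = 0.1.

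Other genes give a scale for that split. At the 8-16-cell stage 338 pairs of probe sets, naming 256 genes, had both probe sets above background on all 3 arrays of either donor group. The prepubertal minus adult differences of the 2 probe sets of a pair lay a median of 1.28 apart on the log2 scale, against 4.64 for SGK1. This places SGK1 as a description only, since its value uses the group the genes were chosen by and its pair entered through the adult arrays, where both probe sets were above background. A spread at least as large was seen in 6 pairs (1.78%), SGK1 included. The other five, named after their values were seen, were FBXL20 (6.41), THBS1 (5.24), ZCCHC3 (5.00), XRN2 (4.84) and PPP2R5E (4.81). In blastocysts SGK1's 0.37 was under the median of 0.949 over 517 pairs, and between the stages in adult-derived embryos its 0.86 was under the median of 1.33 over 540 pairs. Between the stages in prepubertal-derived embryos the SGK1 spread was 3.42 against a median of 1.51 over 394 pairs, of which 14.5% were at least as far apart. Both probe sets are taken as SGK1 from the platform's annotation. Which part of the transcript each reads, and which of them reads SGK1 as it is now annotated, was not analysed here.

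**Figure D3:**
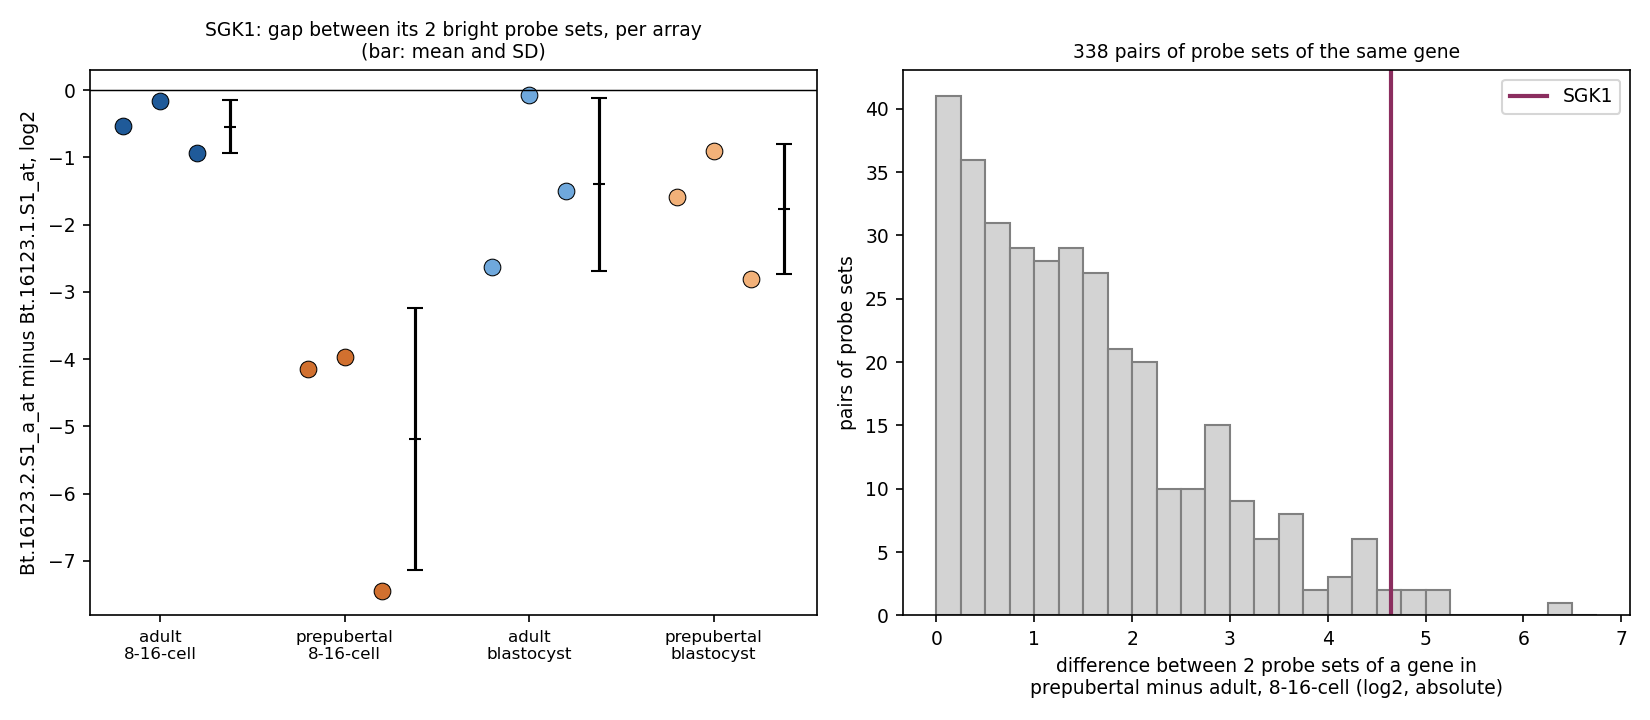
Left, the per-array gap between the 2 bright SGK1 probe sets (log2), with group mean and SD; right, the absolute difference between 2 probe sets of the same gene in prepubertal minus adult at the 8-16-cell stage (log2), counted over 338 pairs, with SGK1 marked. The 3 prepubertal 8-16-cell arrays have gaps of -3.97 to -7.44, below the other 9 arrays, and SGK1 at 4.64 is among the 6 widest pairs.

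The A1_at probe set of SGK1 gave signals of 7.85 to 639 over the study. It was above background on 1 array, the third prepubertal blastocyst array, at 428 against a background of 254. Its signals of 18.9 to 128 on the adult and 11.8 to 639 on the prepubertal 8-16-cell arrays were all below background, so no difference is given for it. It counts as a probe set without a measured level.

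Set in order of their mean level, the groups ranked differently for each bright probe set. For STK38 the order was adult 8-16-cell, prepubertal blastocyst, adult blastocyst and prepubertal 8-16-cell. Its first and second groups overlapped, as did both blastocyst groups, and the signals of the adult blastocysts lay above those of the prepubertal 8-16-cell embryos. The size of that last step is not given, since the latter group was below background on all 3 arrays and the lowest signals of adult blastocysts (204 and 248) were at or near theirs. For S1_at both 8-16-cell groups came first and overlapped, followed by the adult blastocysts 1.54 below the adult 8-16-cell group without overlap, and by the prepubertal blastocysts 0.97 lower with overlap. For S1_a_at the adult 8-16-cell group came first, 2.40 above the adult blastocysts without overlap. The prepubertal blastocysts and then the prepubertal 8-16-cell embryos followed, 1.34 and 0.83 lower, each overlapping its neighbour. Over the 12 arrays STK38 had a Pearson r of 0.68 with S1_a_at and of -0.23 with S1_at, and the SGK1 probe sets had an r of 0.16 with each other. These are descriptions over arrays that share their groups and their scaling. The arrays include the group the genes were chosen by, where STK38 and S1_a_at were low and S1_at was not. The values of r therefore follow in part from that choice and are no separate finding.

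Of 13 close relatives and partners looked for, 6 were named on the array, and most of their signals were at background. STK38L, the paralogue of STK38, had 2 probe sets, above background on 2 and 3 of 12 arrays, with signals of 7.33 to 466 and 12.7 to 335. LATS1, the Hippo kinase that phosphorylates YAP, was above background on 4 arrays. Its adult 8-16-cell signals had a median of 267 and reached 11188, and its prepubertal ones had a median of 43.0 and reached 992. SGK3, an SGK1 relative found on endosomes, was above background on 2 arrays, and NR3C1, the glucocorticoid receptor, on 0 and 1 arrays for its 2 probe sets. NEDD4L, the ubiquitin ligase that SGK1 phosphorylates, was above background on 6 arrays, with medians of 183, 194, 1073 and 263 in the adult 8-16-cell, prepubertal 8-16-cell, adult blastocyst and prepubertal blastocyst groups. NDRG1, a substrate used to read SGK1 activity, was above background on 7 arrays, with medians of 111, 651, 1867 and 1535 in the same order. None (0) of these 6 genes passed the adjusted threshold in any of the 4 comparisons, and for STK38L, SGK3 and NR3C1 that says little, since few arrays measured them.

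Wider lists around the 2 kinases were counted next. Without STK38 itself, 18 genes of the NDR and Hippo list were named on the array, 7 of them above background on all 3 arrays of at least 1 group, and 0 of the 18 passed limma's adjusted threshold in any of the 4 comparisons. Over all probe sets 0.0208% and 0% passed between donors (8-16-cell, blastocyst) and 2.13% and 2.34% between stages (adult, prepubertal), so a count of 0 among so few genes is near the background, here and in the next 2 lists. Their median prepubertal minus adult difference at the 8-16-cell stage was 0.52, beside 0.46 over the 9155 genes of the array. In blastocysts it was -0.09 beside 0.18, between stages 0.35 beside 0.13 in adult-derived and -0.20 beside -0.16 in prepubertal-derived embryos.

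Among the NDR and Hippo genes the smallest p between donors at the 8-16-cell stage belonged to CCN2, a secreted matricellular protein and YAP target gene, and to STK4 (MST1), a kinase upstream of LATS and NDR kinases. CCN2 gave a prepubertal minus adult difference of -3.38 (SE 1.36, adjusted p = 0.457 by limma), with 12.10 ± 1.13 in adult and 8.72 ± 2.20 in prepubertal embryos (SD, n = 3 each). STK4 was 7.97 ± 2.97 in adult and 11.59 ± 2.65 in prepubertal embryos, a difference of 3.62 (adjusted p = 0.468 by limma). CCN2 was above background on 2 of 3 prepubertal arrays and STK4 on 2 of 3 adult arrays, so the sizes of both differences are uncertain. In blastocysts STK26 (MST4) was at background on all 3 prepubertal and above it on all 3 adult arrays, at least 3.13-fold lower (adjusted p = 0.9996 by limma). Between stages, TEAD4, a transcription factor partner of YAP, was at background on all 3 prepubertal 8-16-cell arrays. It was above background on all 3 prepubertal blastocyst arrays, at least 1.49-fold (adjusted p = 0.0741 by limma). STK26 was at background on all 3 adult 8-16-cell and above it on all 3 adult blastocyst arrays, at least 3.24-fold (adjusted p = 0.111 by limma). None of these values passed.

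For the SGK and PI3K list, 22 genes besides SGK1 were named on the array, 5 above background in a group, and 0 passed in any comparison by limma, where at most 2.34% of all probe sets did. The median difference between donors at the 2 stages, in that order, was 0.60 and 0.35, beside 0.46 and 0.18 over all genes. PIK3CA, the catalytic PI3-kinase subunit, was -3.21 (adjusted p = 0.515 by limma) between donors at the 8-16-cell stage. It was above background on 1 of 3 prepubertal and 2 of 3 adult arrays, so that size is uncertain. GSK3A, a kinase that AKT and SGK1 inhibit, was 4.10 in blastocysts (SE 1.58, adjusted p = 0.9996). The adult blastocyst level of GSK3A varied with an SD of 4.64 around 7.37, with 1 of 3 arrays above background. Neither gene passed limma's threshold.

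Corticosteroid receptors and genes that corticosteroids induce were followed because SGK1 is one of the latter. Of 9 named on the array, 2 were above background in a group, and 0 passed limma's threshold in any comparison, where at most 2.34% of all probe sets did. Between donors their median difference was 1.12 in 8-16-cell embryos, and in blastocysts -0.23, beside 0.46 and 0.18 over all genes. Between stages it was 0.09 in adult-derived embryos and -2.12 in prepubertal-derived ones, beside 0.13 and -0.16 over all genes. The medians of -0.23, 0.09 and -2.12 are the values of NR3C1, whose probe set used here was above background on 1 array. They are therefore not measured changes. The median of 1.12 is not read as one either, with 2 of the 9 genes above background in a group. FKBP5, a chaperone of the glucocorticoid receptor, was 3.13 (SE 1.48, adjusted p = 0.522 by limma) between donors at the 8-16-cell stage. Its signal was above background on 2 of 3 arrays in each of these groups. DUSP1, a phosphatase of MAP kinases, was above background on all 6 prepubertal arrays, at 14.56 ± 1.85 at the 8-16-cell stage and 11.79 ± 0.54 in blastocysts, a difference of -2.77 (adjusted p = 0.130). Neither passed.

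Of 25 other AGC kinases named on the array, 7 were above background in a group. Between the stages 1 of the 25 passed in adult-derived and 2 in prepubertal-derived embryos, beside 2.13% and 2.34% of all probe sets, so the counts say nothing particular about the list. PRKCI, the atypical protein kinase C of the apical polarity complex, rose between the stages in adult-derived embryos, by 6.38 (SE 1.46, adjusted p = 0.00412 by limma). It was at background on all 3 adult 8-16-cell arrays, so the rise is at least 16.7-fold. PRKACB, a catalytic subunit of protein kinase A, fell between the stages in prepubertal-derived embryos by 6.62 (SE 1.47, adjusted p = 0.00186), at least 17.7-fold, to background on all 3 blastocyst arrays. RPS6KA4 (MSK2) passed in the same comparison at -3.87 (adjusted p = 0.0464), yet it was at background on all 6 arrays and has no measured change. Between donors 0 of the 25 genes passed by limma at either stage, beside 0.0208% (8-16-cell) and 0% (blastocyst) of all probe sets. The medians of the list were 0.08 in 8-16-cell embryos and 0.32 in blastocysts, beside 0.46 and 0.18 over all genes.

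**Figure D4:**
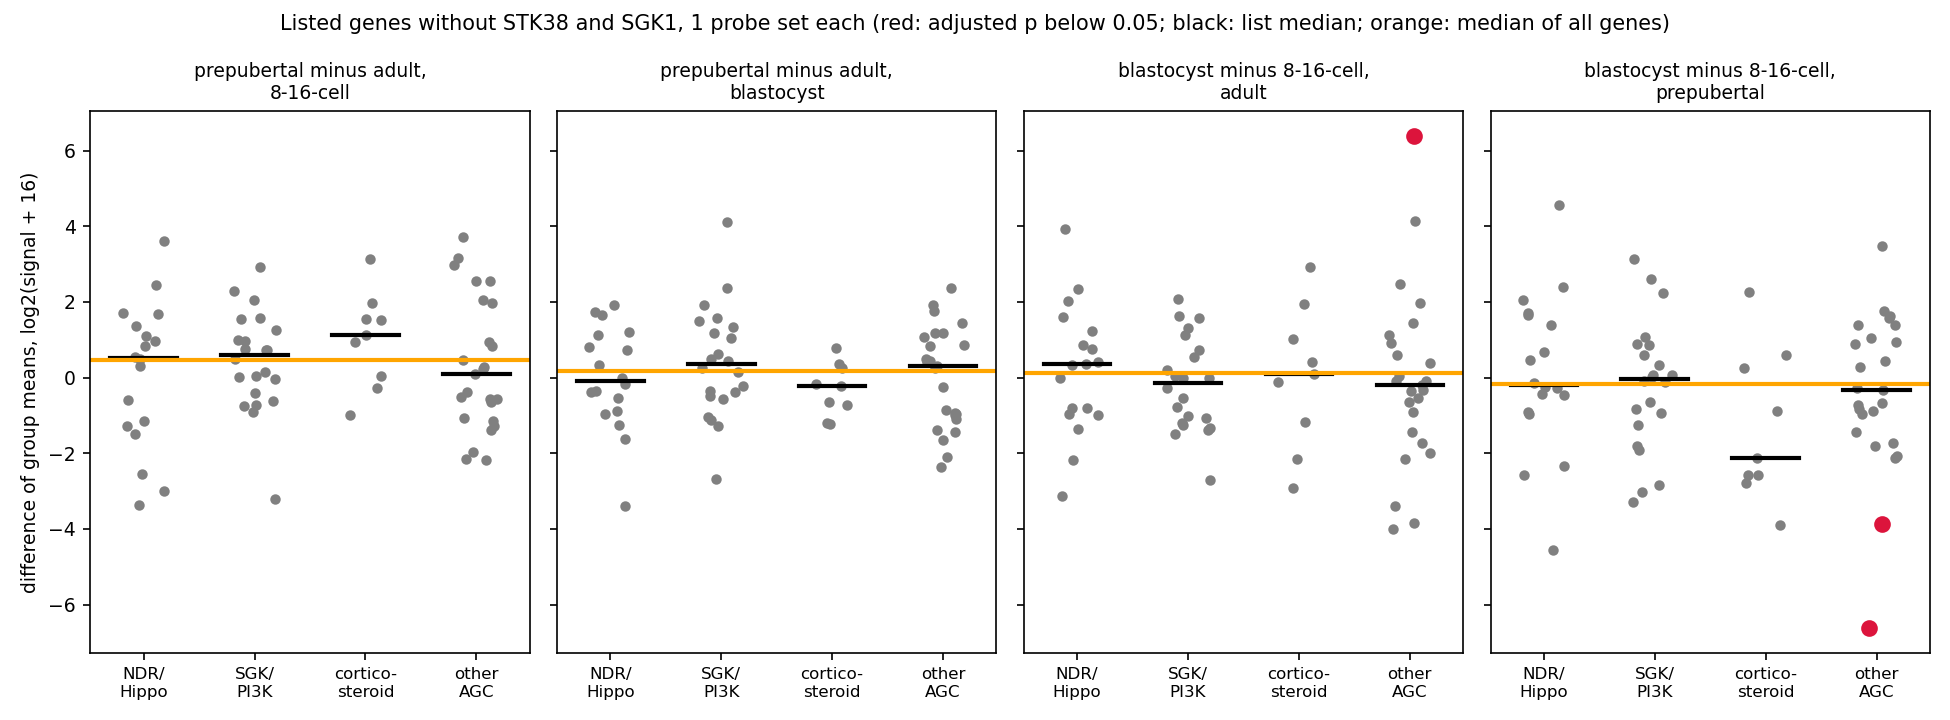
Differences of group means (log2 of signal + 16) for the listed genes other than STK38 and SGK1, 1 probe set per gene, in the 4 comparisons; each point is a gene, black bars are list medians, orange lines the median of all 9155 genes, and red points passed an adjusted p of 0.05. PRKCI is the red point between stages in adult-derived embryos, and PRKACB and RPS6KA4 are those in prepubertal-derived embryos.

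The genes whose signal followed each probe set most closely over the 12 arrays were taken from 3928 probe sets that name 1 gene and lay above background on all 3 arrays of a group. For STK38 the 5 highest Pearson correlations were with MCM3AP (0.89), TMEM185B (0.86), OCIAD1 (0.85), ESYT1 (0.82) and PITPNB (0.81). MCM3AP, a scaffold of mRNA export, had signals of 1411 to 1898 in adult and 36.7 to 593 in prepubertal 8-16-cell embryos, and 92.5 to 908 in adult and 449 to 3058 in prepubertal blastocysts. ESYT1, a tether between the endoplasmic reticulum and the plasma membrane, and PITPNB, a phosphatidylinositol transfer protein, were above background on all 3 adult and on 0 prepubertal 8-16-cell arrays. That likeness to STK38 follows from how the genes were picked, by correlation over arrays that include this group, and is no separate finding. OCIAD1 lay above background on 2 of its 3 arrays.

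Each bright SGK1 probe set had its own neighbours. Those of S1_at were ATG14 (0.97), HMGN4 (0.96), TRA2B (0.95), HNRNPDL (0.95) and SYNCRIP (0.94). Each gene was matched by a single probe set, and other probe sets of a gene can differ. The matched probe sets of all 5 were above background on all 6 arrays of the 8-16-cell stage, as S1_at itself was. Between donors at that stage those of SYNCRIP and HNRNPDL gave 0.58 and 0.59, prepubertal minus adult. Other probe sets gave -2.73 and -1.64 for SYNCRIP and -1.21 for HNRNPDL. TRA2B, a splicing regulator, had signals of 48194 to 71748 and 56727 to 145140 in the adult and prepubertal 8-16-cell groups, and of 9398 to 17583 and 3434 to 10643 in the adult and prepubertal blastocysts.

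Those of S1_a_at were EIF3J (0.97), DPYSL2 (0.86), FAM210A (0.85), CAND1 (0.85) and DPH3 (0.84), again by a single probe set each. Between donors at the 8-16-cell stage the matched DPYSL2 probe set gave -2.71, prepubertal minus adult. Other DPYSL2 probe sets gave -2.17 and 1.08. For CAND1 the matched probe set gave -1.83 and another gave -1.17. EIF3J, a factor of translation initiation, had signals of 20173 to 30358 in adult and 2191 to 5210 in prepubertal 8-16-cell embryos, and of 7633 to 10779 and 2418 to 7284 in adult and prepubertal blastocysts. It was above background on all 12 arrays, the array that stood apart included. DPH3, a factor of diphthamide synthesis, was above background on 3 adult and 0 prepubertal 8-16-cell arrays. None of the 10 genes named for the 2 SGK1 probe sets was shared between them. The probe sets themselves had an r of 0.16, and each list was picked by correlation over arrays that include the choosing group. The patterns of these genes and their separate lists follow from that picking and are no separate finding.

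**Figure D5:**
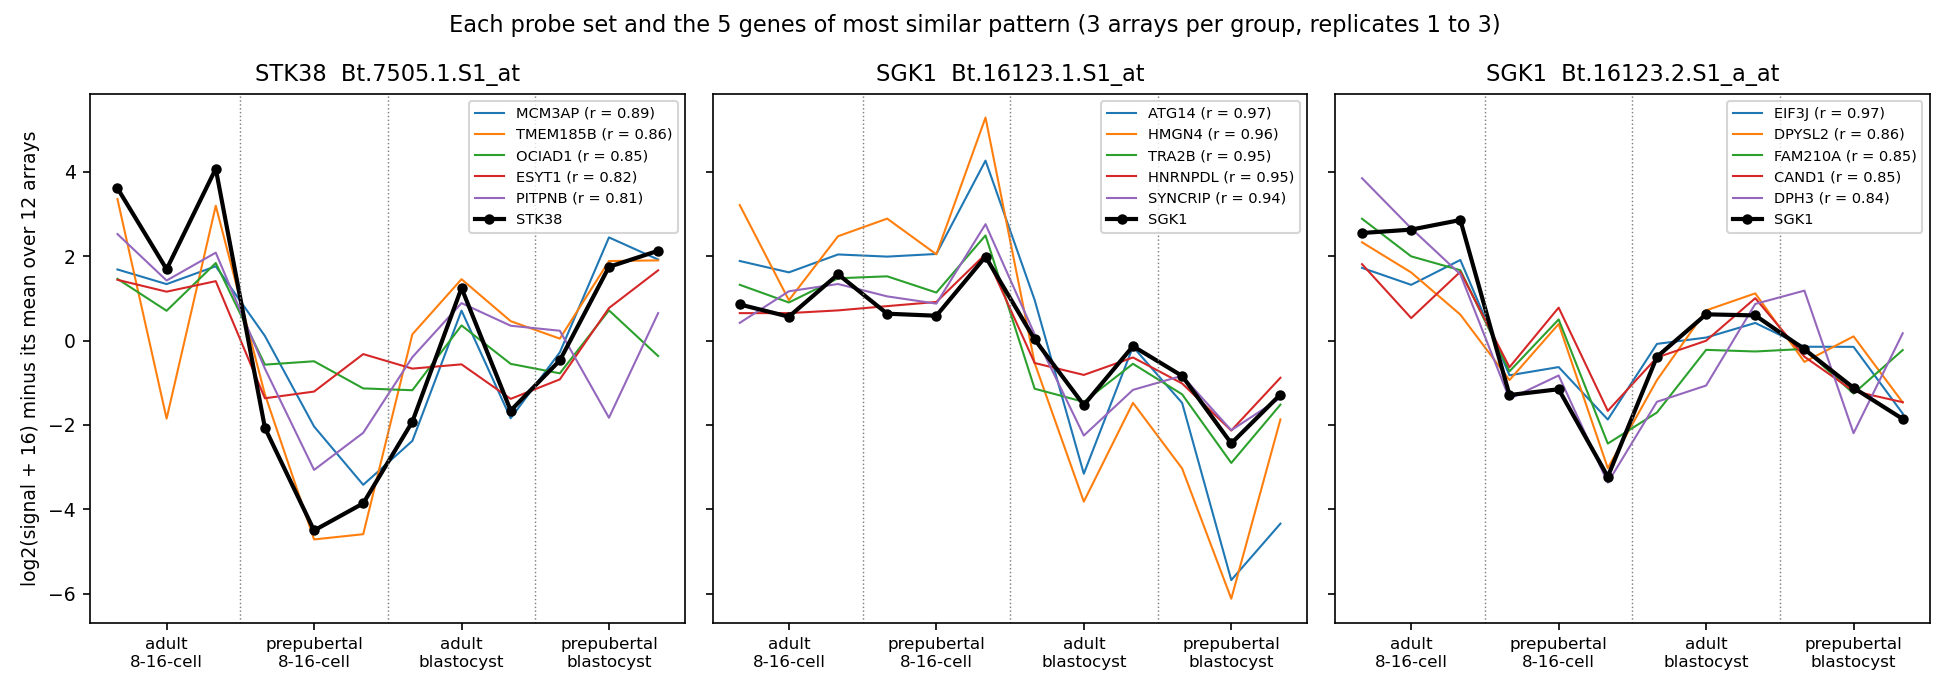
log2(signal + 16) minus its mean over the 12 arrays (y axis) on each array (x axis, 3 arrays per group in the order of their replicate numbers, which carries no meaning) for STK38 and the 2 bright SGK1 probe sets in black and the 5 genes of highest Pearson correlation in colour. The matched probe sets of the genes near S1_at stay high on all 6 arrays of the 8-16-cell stage. Those of the genes near STK38 and S1_a_at have lower ranges on the prepubertal than on the adult 8-16-cell arrays. The ranges overlap for TMEM185B and CAND1. These patterns follow from the picking by correlation.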

How the data were processed

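The deposited values are 1 signal intensity per probe set and array, which the authors made with MAS5 (version not given in the sources used here), per the submitters' processing notes. The mean signal of every array, trimmed by 2% at each end, lay at 500.2 to 500.3. Gene names come from the platform's annotation, brought up to date by gene identifier: 13292 probe sets name 1 gene, 86 several and 10638 none.

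Signals were analysed as log2(signal + 16), which understates changes of low signals. limma 3.58.1 in R 4.3.3 (lmFit, eBayes with trend) fitted 4 group means to the 12 arrays, with Benjamini-Hochberg adjustment over 24016 probe sets and a two-sided threshold of 0.05. Scripts were tested on simulated data. The 3 arrays per group limit the precision: the median SE was 1.30. Each SE and interval of a difference is the moderated one of limma. In the main fit it had 195.66 prior against 8 residual degrees of freedom. It therefore rests mostly on the trend over all probe sets, and little on the spread of the arrays compared. The SDs are those of the 3 arrays of a group. At most 0.00416% of the values were identical between arrays, and 0 columns belonged to another series.

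The members and lists were chosen with earlier results of these data known. The rule for names took every STK38 or SGK1 probe set, 13 relatives and partners, the called genes and the 2 smallest p of each list, and the 5 most correlated genes per bright probe set. Where a gene has several probe sets, a list uses the one with the highest mean. Alternatives were other pseudocounts, quantile or median scaling, a floor, a filter, no trend, array weights, a replicate block, the compared arrays alone, and each array left out. Scaling to hybridization controls was added after seeing the data.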

Additional observations from a re-analysis of the deposited data

Results flagged for a closer look

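The change of STK38 between the stages had opposite directions in the donor groups: -3.90 in adult-derived embryos, where every blastocyst array lay below every 8-16-cell array, and 4.61 in prepubertal-derived embryos, where every blastocyst array lay above. The difference between the 2 changes was not tested, because the prepubertal 8-16-cell arrays chose the gene. All 3 signals of that group were below background, so the 4.61 is given as a bound of at least 2.82-fold. With every signal raised to the highest background the changes were -2.04 in adult-derived and 0.62 in prepubertal-derived embryos. Over all probe sets, the stages did not overlap in 17.2% in adult-derived and 16.6% in prepubertal-derived embryos.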

How the results depend on the processing

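With 3 arrays per group and a median SE of 1.30 on the log2 scale, only large differences could pass. The direction of every difference of the STK38 probe set and of the SGK1 probe set S1_a_at, and of the tested differences of the SGK1 probe set S1_at, held under all settings run, while that of S1_at between donors at the 8-16-cell stage lay between -1.54 and 0.36. In blastocysts, prepubertal minus adult ranged from 0.54 to 2.93 for STK38, from -1.46 to -0.51 for S1_at and from -1.77 to -0.94 for S1_a_at, and passed nowhere. Between stages in adult-derived embryos, STK38 at -3.90 passed with only probe sets above background in a group (adjusted p = 0.0475 by limma), where fewer are tested. It also passed with only the 6 arrays compared (0.0485). S1_a_at at -2.40 passed with signals raised to the highest background (0.0234 by limma) and with only the 6 arrays (0.0322). Raising the signals left out probe sets never above that background, so fewer were tested, and the SE of S1_a_at fell from 1.07 to 0.50. Signals raised to the highest background put STK38 at -2.11 between donors at the 8-16-cell stage. Between stages they put it at -2.04 in adult-derived and 0.62 in prepubertal-derived embryos, since that background hides low signals.

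The number of probe sets called between donors at the 8-16-cell stage, 5, was 3 with a pseudocount of 1, of 64 or with array weights, 8 with quantile normalization, 17 centred on the array median, 1 with the floor, 0 with the filter or without trend, 2 with only 6 arrays and 67 scaled to the hybridization controls. In blastocysts it was 2 in place of 0 with only 6 arrays. Between stages the 512 calls in adult-derived embryos became 241 with the floor, 935 with the filter, 889 with array weights and 279 scaled to the controls, and the 563 in prepubertal-derived embryos became 298, 927 and 990 with the floor, the filter and the controls. The cause was not tested.

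Leaving out 1 array at a time gave 2 to 14 calls between donors at the 8-16-cell stage, 0 in blastocysts, 253 to 794 between stages in adult-derived embryos (794 without the third prepubertal 8-16-cell array) and 272 to 611 in prepubertal-derived ones. STK38 between stages in adult-derived embryos ranged from -4.92 to -3.33 (lowest adjusted p 0.0840 by limma), S1_at from -1.83 to -1.05 and S1_a_at from -2.57 to -2.07. That 0.0840 came without the third prepubertal 8-16-cell array, which is not in the comparison, at an unchanged -3.90. Arrays of equal replicate number did not deviate together (correlations of -0.03 to 0.06). With the replicate block the adjusted p of STK38 in that comparison was 0.159 by limma, and the counts were 5, 0, 540 and 608. The block changed no call of a member.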
